A study of Mus musculus with 6 samples.

Results

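Genes that mark alveolar type 1 cells were examined in whole mouse lung profiled on microarrays after naphthalene. The 10 genes were listed by name as known markers of this cell type (Ager, Hopx, Aqp5, Pdpn, Rtkn2, Akap5, Clic5, Emp2, Spock2 and Igfbp2), and every probe set annotated to exactly 1 of them was taken. All 10 were measured, by 11 probe sets, out of 16537 genes with such a probe set on the arrays. The 6 arrays held RNA from 3 wild-type samples and 3 samples labelled Falcor-null, which should lack the long non-coding RNA Falcor, whose gene neighbours that of the lung transcription factor Foxa2. Every sample of both groups had received naphthalene, and every sample carried the strain label of a CD1 and C57Bl6 mix. The labels placed the wild-type samples at days 28, 29 and 30 after naphthalene and the samples labelled Falcor-null at days 31, 32 and 33, so that, as labelled, day and genotype cannot be told apart. These day labels rise by 1 from each sample to the next in the order listed, and whether they are actual days is not known here. How the null allele was made, the age of the mice and whether each sample is a separate animal are not given in the sources used here. The p-values therefore reflect sample-to-sample spread, some or all of which may be technical.

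Alveolar type 1 cells are the thin, flat epithelial cells that line most of the gas-exchange surface of the lung. They lie on a shared basement membrane with the capillary endothelium and are renewed after injury by alveolar type 2 cells, the cuboidal cells that make surfactant. Naphthalene is turned into a toxic product by club cells of the conducting airway, so that its known target is the airway and not the alveolus.

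Values are the authors' log2 signals, on which a difference of 1 is a doubling, and differences are given as Falcor-null minus wild type. The medians of the 6 arrays lay between 6.69 and 6.74 but split by group. They were 6.7175 to 6.7355 in wild type and 6.6943 to 6.6995 on the arrays labelled Falcor-null. The SD of an array was 1.699 to 1.7308 in wild type against 1.6915 to 1.6947, and its lowest signal 3.1917 to 3.2215 against 2.0887 to 2.4175. The arrays of the groups thus differed slightly in their spread of signals as well. The lowest signal of any member on any array was 7.43. The targeted gene, annotated as 9030622O22Rik, read 4.69 to 5.45 on the wild-type arrays and 6.32 to 6.82 on the arrays labelled Falcor-null, opposite to the loss that the label states. The difference of this gene was 1.44 and passed the threshold used below as higher (limma adjusted p 0.0423). Whether its probe set lies in the altered part is not known here, so every direction below rests on the labels. Foxa2 gave 7.84 to 7.89 in wild type and 8.05 to 8.19 on the arrays labelled Falcor-null, a difference of 0.27 short of the threshold used below (limma adjusted p 0.175).

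All 10 alveolar type 1 genes had a higher mean on the arrays labelled Falcor-null, and 1 of them, Spock2, passed the test. The threshold was an adjusted p of 0.05 in limma, a linear model that shares variance estimates across genes, with adjustment over all 16537 genes. By that rule 0.0968% of all genes passed as higher and 0.46% as lower, and no member passed as lower. In 9 of the 10 genes, every array labelled Falcor-null read above every wild-type array, the exception being Aqp5. Over all genes, 8.96% were separated in this way as higher and 10.6% as lower. The gap between the groups was narrow in most, from 0.0032 for Emp2, 0.01 for Pdpn and 0.02 for Hopx and Rtkn2 to 0.10 for Clic5, and wider only for Igfbp2 (0.24) and Spock2 (0.64). At an unadjusted p under 0.05, 4 members (Spock2, Igfbp2, Clic5 and Ager) were higher and 0 lower, against 6.11% and 7.65% of all genes. The median difference over the 10 members was 0.20, with a range from 0.06 to 1.13, against 0.0026 over all genes. In whole lung RNA, more cells of a type and more RNA per cell cannot be told apart.

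**Figure D1:**
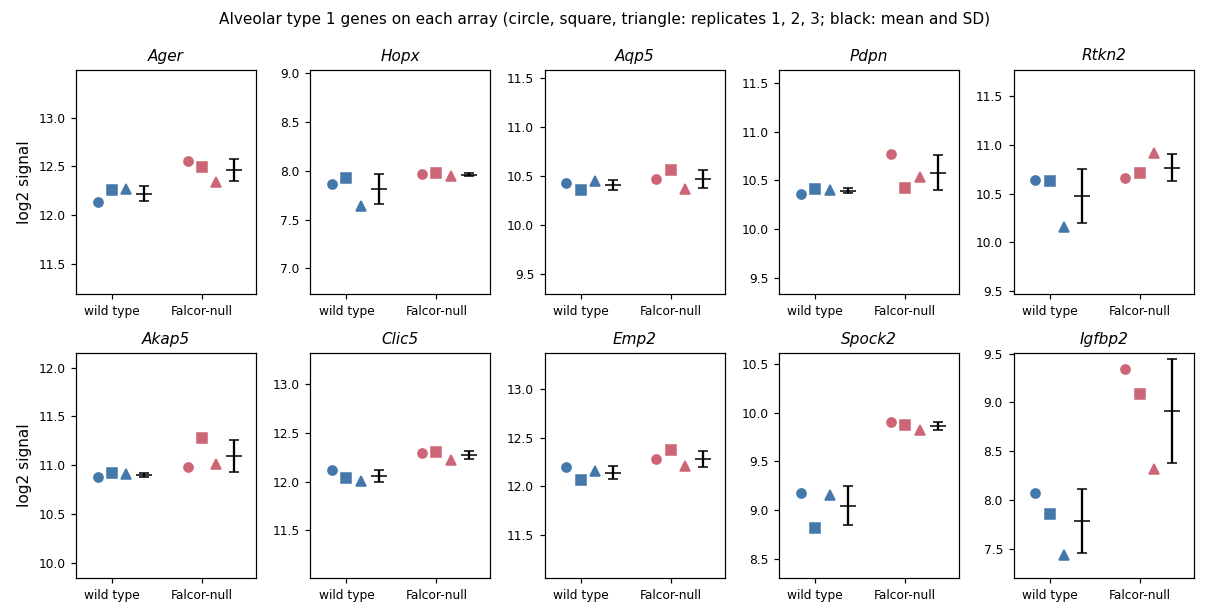
Log2 signal (vertical axis) of the 10 alveolar type 1 genes in each wild-type (blue) and Falcor-null (red) array, with the mean and SD of 3 arrays in black and every panel spanning the same height. The groups are widest apart for Spock2 and Igfbp2, and the red points of Aqp5 overlap the blue ones.

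The members whose protein is secreted had the largest differences by the probe set that stood for each gene. Spock2, which encodes a testican, a proteoglycan of the extracellular matrix, read 9.18, 8.81 and 9.15 on wild-type replicates 1, 2 and 3 against 9.90, 9.88 and 9.82 on the arrays labelled Falcor-null. Its Falcor-null arrays lay close together, and the wild-type spread came mostly from replicate 2. Means were 9.05 ± 0.20 and 9.87 ± 0.04 (SD, n = 3 each), a rise of 0.82 (SE 0.11, 95% interval 0.56 to 1.08), or 1.76-fold (limma adjusted p 0.0324). The call was lost in limma when any array other than wild-type replicate 1 was left out. The difference was then 0.70 without wild-type replicate 2 (adjusted p 0.0546), 0.87 without wild-type replicate 3 (0.0774) and 0.80, 0.81 and 0.84 without Falcor-null replicates 1, 2 and 3 (0.124, 0.111 and 0.0764).

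Igfbp2 encodes a secreted binding protein of the insulin-like growth factors and is used as a marker of mature alveolar type 1 cells. It read 8.07, 7.86 and 7.43 on wild-type replicates 1 to 3 against 9.35, 9.08 and 8.32 on the corresponding arrays labelled Falcor-null. The groups did not overlap, but Falcor-null replicate 3 lay only 0.24 above the highest wild-type array. Means were 7.79 ± 0.33 and 8.92 ± 0.53 (SD, n = 3 each), a difference of 1.13 (SE 0.27, 95% interval 0.49 to 1.77), or 2.19-fold. It was larger than that of Spock2 yet did not pass (limma adjusted p 0.134), its spread within groups being wider. Leaving out 1 array at a time gave 0.91 (without Falcor-null replicate 1) to 1.43 (without Falcor-null replicate 3), and in none of these fits did it pass (limma adjusted p 0.0704 to 0.302).

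The promoter windows of these genes are shown because they had the largest differences, together with that of Pdpn, which was the only member whose window held the forkhead motif looked for. Each runs from 250 bases before the annotated transcription start, is 300 bases long and comes from RefSeq on GRCm38.p6, and capitals mark the motifs described after the sequences. Spock2 lies on the plus strand at chr10:60106007-60106306, Igfbp2 has windows on the plus strand at chr1:72824230-72824529 and chr1:72825137-72825436, and Pdpn lies on the minus strand at chr4:143299515-143299814.
Spock2: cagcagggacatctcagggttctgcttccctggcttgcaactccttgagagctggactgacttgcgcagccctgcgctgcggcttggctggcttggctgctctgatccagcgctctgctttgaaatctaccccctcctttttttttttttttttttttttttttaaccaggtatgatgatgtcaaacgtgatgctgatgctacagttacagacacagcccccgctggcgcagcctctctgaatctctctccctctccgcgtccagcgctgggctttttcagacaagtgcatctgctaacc
Igfbp2, first window: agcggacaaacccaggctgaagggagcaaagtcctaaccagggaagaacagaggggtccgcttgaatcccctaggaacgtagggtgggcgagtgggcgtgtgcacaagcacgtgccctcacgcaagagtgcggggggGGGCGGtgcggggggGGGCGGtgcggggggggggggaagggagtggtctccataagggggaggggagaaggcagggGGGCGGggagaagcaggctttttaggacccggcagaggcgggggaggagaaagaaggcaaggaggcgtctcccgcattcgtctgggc
Igfbp2, second window: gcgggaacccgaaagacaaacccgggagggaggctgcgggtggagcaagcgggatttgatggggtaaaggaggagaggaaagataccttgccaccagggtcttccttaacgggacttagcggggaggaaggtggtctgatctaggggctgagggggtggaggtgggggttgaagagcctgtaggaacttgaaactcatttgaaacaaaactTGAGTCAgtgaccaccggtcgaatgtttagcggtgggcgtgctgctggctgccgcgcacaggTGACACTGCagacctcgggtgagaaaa
Pdpn: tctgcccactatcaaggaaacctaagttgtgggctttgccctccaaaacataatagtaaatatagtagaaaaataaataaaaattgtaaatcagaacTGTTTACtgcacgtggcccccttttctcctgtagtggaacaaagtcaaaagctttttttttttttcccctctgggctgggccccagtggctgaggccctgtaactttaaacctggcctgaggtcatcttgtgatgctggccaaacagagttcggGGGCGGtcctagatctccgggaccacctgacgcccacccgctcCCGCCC

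Windows were found for 9 of the 10 members, 11 windows in all, none of them for Rtkn2. The letters searched on both strands were TGTTTAC (forkhead factors such as Foxa2), GGAATG (Tead factors), TGANTCA (AP-1), CACTCAAG (Nkx2-1), TGACNNNGC (the antioxidant element), TATAAA (an element upstream of many starts) and GGGCGG (the GC box). The forkhead letters were in 1 of the 11 windows, that of Pdpn, and in 3.65% of 32851 windows of all genes. The AP-1 letters were in 1 window, the second of Igfbp2, against 7.81% of all windows. GC boxes were in 6 of the 11 windows, against 35.7%, and the antioxidant letters in 3, those of Clic5, Emp2 and Igfbp2, against 12.4%. In Clic5 1 of its antioxidant matches overlaps a GC box. The letters of Tead, of Nkx2-1 and of TATAAA were in none of the member windows and in 14.7%, 1.43% and 13.6% of all windows. The Spock2 window held none of the motifs searched. Such matches are letters in a short window and show no binding.

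Among surface proteins, Ager, the receptor for advanced glycation end products that lung makes mainly in type 1 cells, read 12.14, 12.26 and 12.27 in wild type against 12.55, 12.49 and 12.34 on the arrays labelled Falcor-null. The groups stood apart by 0.07, less than the SD of 0.11 within the Falcor-null group. The difference was 0.24 (SE 0.09, 95% interval 0.04 to 0.45; limma adjusted p 0.283), or 1.18-fold. Pdpn, a mucin-type membrane glycoprotein also made by lymphatic endothelium and mesothelium, read 10.36, 10.41 and 10.40 in wild type against 10.77, 10.42 and 10.53 on the arrays labelled Falcor-null. Falcor-null replicate 1 carried most of that difference of 0.18 (95% interval -0.05 to 0.42; limma adjusted p 0.480), which was 0.09 without it. Emp2, a tetraspan protein of the plasma membrane, read 12.20, 12.07 and 12.16 in wild type against 12.28, 12.37 and 12.20 on the arrays labelled Falcor-null. Its highest wild-type and lowest Falcor-null arrays nearly met, and the difference of 0.14 had an interval from -0.05 to 0.33 (limma adjusted p 0.496).

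Of the channel genes, Clic5, a chloride intracellular channel protein linked to the actin cortex, read 12.12, 12.04 and 12.00 in wild type against 12.29, 12.30 and 12.22 on the arrays labelled Falcor-null. Means of 12.05 ± 0.06 and 12.27 ± 0.04 (SD, n = 3 each) differed by 0.22 (SE 0.07, 95% interval 0.04 to 0.39; limma adjusted p 0.260). Its difference was close in size to that of Ager and stayed between 0.19 and 0.25 whichever array was left out. Aqp5, the water channel of the apical membrane, read 10.43, 10.35 and 10.45 in wild type against 10.47, 10.56 and 10.37 on the arrays labelled Falcor-null. It was the member with the smallest difference, 0.06 (95% interval -0.13 to 0.25; limma adjusted p 0.818), and the only one whose groups overlapped.

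The genes for signalling and transcriptional proteins had small differences by their main probe sets. Akap5, a scaffold that holds protein kinase A near the membrane, read 10.88, 10.92 and 10.91 in wild type against 10.98, 11.28 and 11.01 on the arrays labelled Falcor-null. Falcor-null replicate 2 stood above the rest, and the difference of 0.19 (95% interval -0.04 to 0.42; limma adjusted p 0.446) was 0.09 without it. Hopx, a homeodomain protein that does not bind DNA itself, read 7.87, 7.93 and 7.64 in wild type against 7.97, 7.98 and 7.94 on the arrays labelled Falcor-null. Here wild-type replicate 3 was low, and the difference of 0.15 (95% interval -0.07 to 0.37; limma adjusted p 0.539) was 0.06 without it.

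Rtkn2 was the only member with more than 1 probe set, and the probe sets disagreed in size. The brighter, 17234008, read 10.64, 10.63 and 10.16 in wild type against 10.66, 10.71 and 10.92 on the arrays labelled Falcor-null, a difference of 0.29 (95% interval -0.05 to 0.63; limma adjusted p 0.442) that was 0.13 without wild-type replicate 3. The other, 17234024, read 8.63, 8.46 and 8.07 in wild type against 9.83, 9.79 and 8.75 on the arrays labelled Falcor-null. Its difference of 1.07 (95% interval 0.38 to 1.76), or 2.10-fold, did not pass over the 17476 probe sets with 1 symbol (limma adjusted p 0.186). Its 6 arrays stood in the same order as those of Igfbp2, from Falcor-null replicate 1 at the top to wild-type replicate 3 at the bottom, whereas the brighter probe set was highest on Falcor-null replicate 3. Averaging both gave 0.68 (limma adjusted p 0.143), so the size of any change in Rtkn2 is uncertain. Which exons the probe sets cover is not known here.

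**Figure D2:**
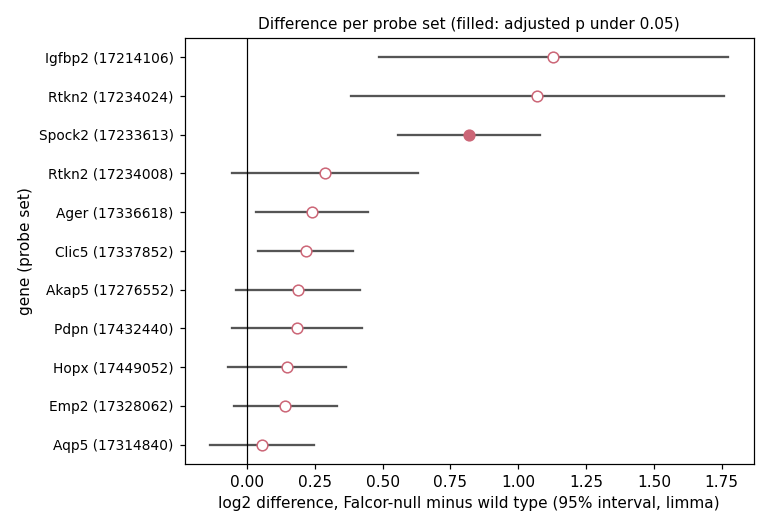
Log2 difference, Falcor-null minus wild type (horizontal axis), with its 95% interval from limma for each of the 11 probe sets (vertical axis), filled where the adjusted p was under 0.05. Spock2 is filled at 0.82, Igfbp2 at 1.13 and the dimmer Rtkn2 probe set at 1.07 have wider intervals, and all other points lie between 0.06 and 0.29.

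The arrays within a group were not alike across the members. Falcor-null replicate 3 gave the lowest of the Falcor-null values in 7 of the 10 genes, and Falcor-null replicate 1 or 2 gave the highest in 9. Each array's mean over the 10 members, relative to the wild-type mean of each gene, was 0.06, 0.0034 and -0.07 for wild type and 0.40, 0.38 and 0.24 for the arrays labelled Falcor-null. No wild-type array was the highest of the 6 for any member, and no array labelled Falcor-null was the lowest. Without Falcor-null replicate 3 the median difference of the members was 0.22, close to the 0.20 with all arrays. With 3 arrays against 3, an exact two-sided permutation test of 1 value cannot go below 0.1.

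Most members gave high signals. Of the 614 genes with a mean log2 signal of at least 10, 7 were members. The median difference of these bright genes was 0.0027, and 12.5% of them had all Falcor-null arrays above all wild-type arrays. Centring the arrays on their medians left all 10 members higher, as did a second quantile normalization and scaling the arrays to one SD.

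A wider list of 27 other genes enriched in alveolar type 1 cells leaned the same way without any passing. Its genes were chosen as enriched in these cells, not as made only there. The part of other lung cells in their values was not tested. Of the 27, all measured, 24 had a higher and 3 a lower mean on the arrays labelled Falcor-null, against 50.8% of all genes that were higher. The median difference was 0.12, and 0 genes passed in either direction in limma, with 4 higher and 0 lower at an unadjusted p under 0.05. Ndnf, a secreted neuron-derived neurotrophic factor, had the smallest p, at 9.50, 9.93 and 9.78 in wild type against 10.77, 10.63 and 10.20 on the arrays labelled Falcor-null, a difference of 0.80 (limma adjusted p 0.103). Vegfa, the growth factor through which type 1 cells signal to capillaries, read 11.44, 11.49 and 11.48 in wild type against 11.91, 11.92 and 11.71 on the arrays labelled Falcor-null, a difference of 0.38 (limma adjusted p 0.11). The groups of both genes did not overlap, with Falcor-null replicate 3 lowest of its group in each. The groups of 3 further genes did not overlap either: the semaphorin Sema3e (0.37), the laminin chain Lama3 (0.32) and the transport protein Mal2 (0.12). The 3 genes with a lower mean were the tight junction gene Cldn18 (-0.19), Gramd2 (-0.06) and Lmo7 (-0.0018). These last 6 genes were picked after their values were seen.

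The wider list stood less far above wild type on Falcor-null replicate 3 than on the other arrays of that group. Its mean over the 27 genes, relative to wild type, was 0.21 and 0.23 on Falcor-null replicates 1 and 2 and 0.02 on replicate 3, against -0.01 to 0.0096 on the wild-type arrays. The number of its genes whose groups did not overlap was 5 with all arrays and 15 without that array, while over all genes the share rose from 8.96% to 16.2%. It was 10 without wild-type replicate 1, where the share over all genes was 15.8%.

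**Figure D3:**
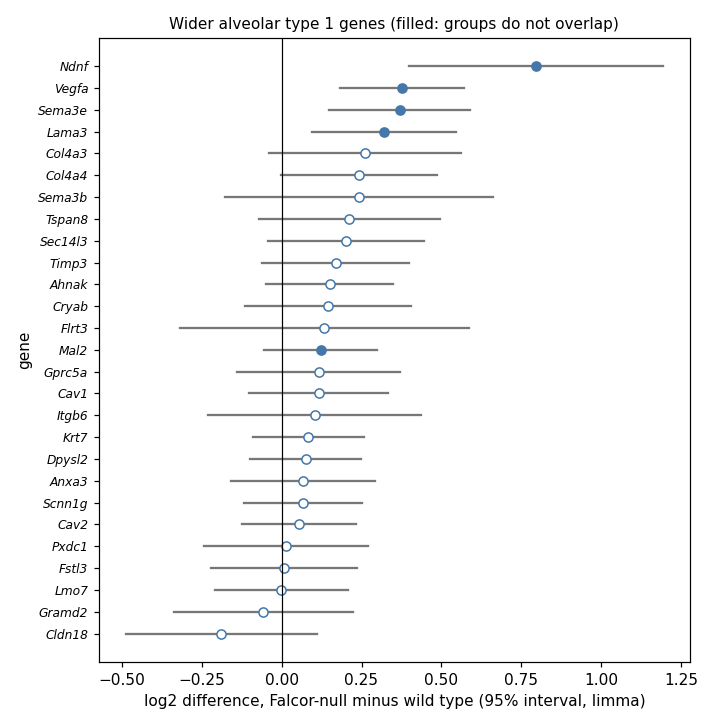
Log2 difference, Falcor-null minus wild type (horizontal axis), with its 95% interval from limma for the 27 wider alveolar type 1 genes (vertical axis), filled where the groups do not overlap. Ndnf lies farthest to the right at 0.80, 3 genes lie left of 0, and none passed an adjusted p of 0.05.

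Regulators of the type 1 fate had 7 of 9 measured genes higher and 2 lower, with a median of 0.12 and 0 passing in limma (1 higher and 0 lower at an unadjusted p under 0.05). Klf5, a zinc finger factor of lung epithelium, gave 0.26 (limma adjusted p 0.238) and Tead1, a DNA-binding partner of the Hippo effectors Yap1 and Wwtr1, gave 0.19 (limma adjusted p 0.397). Of 10 genes widely used as targets of Yap1 and Wwtr1, 8 were higher and 2 lower with a median of 0.07. None passed, with 2 higher and 0 lower at an unadjusted p under 0.05, and Ccn1, a matricellular protein (0.53), and Amotl1, an angiomotin (0.20), had limma adjusted p-values of 0.256 and 0.281.

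Relatives of the members went both ways. Among 22 measured genes of the aquaporin, Igfbp, Spock, Emp, Clic, Rtkn and A kinase anchor families, 14 were higher and 8 lower, with a median of 0.04 and 0 passing in limma (2 higher and 1 lower at an unadjusted p under 0.05). The scaffolds Akap12 (0.46, limma adjusted p 0.0689) and Akap2 (0.28, limma adjusted p 0.234) had the smallest p-values. Of 7 measured ligands, receptors and partners of Ager, Pdpn and Hopx, 4 were higher and 3 lower, with a median of 0.02. None passed in limma, with 0 higher and 2 lower at an unadjusted p under 0.05. S100a8, a calcium-binding protein of neutrophils and a ligand of the Ager receptor, read 7.67, 7.60 and 9.17 in wild type against 6.51, 6.87 and 6.81 on the arrays labelled Falcor-null, a difference of -1.41 (limma adjusted p 0.180). Wild-type replicate 3 stood well above the other arrays for this gene. Cd44, a hyaluronan receptor that can bind podoplanin, gave -0.34 (limma adjusted p 0.259).

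Genes of the neighbouring epithelial states were not shifted as the members were in their medians, a difference that was not tested. Of 20 alveolar type 2 genes, 7 were higher and 13 lower, with a median of -0.06 and 0 passing in limma (0 higher and 2 lower at an unadjusted p under 0.05). Sftpd, a surfactant collectin, gave -0.47 (limma adjusted p 0.210) and the fatty acid desaturase Scd1 gave -0.24 (limma adjusted p 0.240). The median turned to 0.00089 without wild-type replicate 3 and to 0.0041 without Falcor-null replicate 3. Of 14 measured genes of the transitional state between type 2 and type 1 cells, 6 were higher and 8 lower, with a median of -0.13, 0 passing in limma and 0 higher and 3 lower at an unadjusted p under 0.05. The secreted chaperone Clu (-0.43) and the lectin Lgals3 (-0.47) had limma adjusted p-values of 0.166 and 0.199. Of 12 general epithelial genes, 8 were higher and 4 lower, with a median of 0.03, 0 passing in limma and 1 higher and 0 lower at an unadjusted p under 0.05, the smallest p-values being those of the junction gene Ocln (0.25, limma adjusted p 0.352) and the factor Elf3 (-0.24, limma adjusted p 0.405).

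Markers of endothelium, fibroblasts and smooth muscle also had mostly higher means on the arrays labelled Falcor-null, although only 1 of them passed the test, and their part in the members' values was not tested. Array signals have no true zero, so the absence of a marker cannot be read from them. All 12 endothelial markers had a higher mean, with a median of 0.16, and the log2 of their summed linear signals, given below as the log2 summed signal, was 14.27 to 14.38 on the wild-type arrays and 14.39 to 14.60 on the arrays labelled Falcor-null. None passed in limma, with 4 higher and 0 lower at an unadjusted p under 0.05, and the junction gene Cldn5 (0.43) and the receptor Tie1 (0.47) both had an adjusted p of 0.101. Of 10 fibroblast markers 9 were higher, with a median of 0.27, larger than that of the members, 0 passing in limma (5 higher and 0 lower at an unadjusted p under 0.05), and a log2 summed signal of 13.69 to 13.90 in wild type and 14.02 to 14.06 on the arrays labelled Falcor-null. The matrix gene Fn1 (0.28) and the collagen gene Col3a1 (0.43) had limma adjusted p-values of 0.283 and 0.30. Of 8 smooth muscle and pericyte markers all were higher, with a median of 0.18, and Tagln, an actin-binding protein, rose by 0.55 (limma adjusted p 0.0407), a call lost in limma with any array left out (0.50 to 0.59, adjusted p 0.0754 to 0.141). Their log2 summed signal was 12.05 to 12.17 in wild type and 12.22 to 12.52 on the arrays labelled Falcor-null. Every array labelled Falcor-null read above every wild-type array for 6 of 12 endothelial, 4 of 10 fibroblast and 2 of 8 smooth muscle markers. No marker in these lists was separated as lower, and the shares over all genes were 8.96% higher and 10.6% lower.

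Leukocyte markers went the other way. Of 14 measured, 13 had a lower and 1 a higher mean, with a median of -0.68, and 3 passed as lower: the T cell receptor subunit Cd3e (-1.20, limma adjusted p 0.00949), the coreceptor Cd4 (-1.23, limma adjusted p 0.0131) and the B cell receptor subunit Cd79a (-0.75, limma adjusted p 0.0282). In limma, Cd3e lost its call without Falcor-null replicate 2 (-1.20, adjusted p 0.0529), Cd4 without that array (-1.21, adjusted p 0.0687) or wild-type replicate 2 (-1.24, adjusted p 0.0546), and Cd79a without any array but wild-type replicate 3 (-0.79 to -0.69, adjusted p 0.0674 to 0.101). The log2 summed signal of all 14 leukocyte markers was 13.99 to 14.42 in wild type and 13.69 to 13.89 on the arrays labelled Falcor-null. That sum mostly follows Lyz2 (-0.09, limma adjusted p 0.759) and Chil3 (-1.12, limma adjusted p 0.0748), named here for their brightness. Lyz2 is also in the type 2 list. Falcor-null replicate 3, lowest of its group for most members, was the highest of its group in the leukocyte list's mean, at -0.55 against -0.78 and -0.79. Whether a smaller share of leukocyte RNA moved the members, or the transitional genes above, was not tested.

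Among markers of other cells that express Pdpn, mesothelial ones were mostly higher and lymphatic ones went both ways. Markers of capillary aerocytes, a separate list not chosen for Pdpn, also went both ways. Of 8 mesothelial markers 6 were higher and 2 lower, with a median of 0.16 and a log2 summed signal of 11.12 to 11.43 in wild type and 11.17 to 11.56 on the arrays labelled Falcor-null. None passed in limma, with 1 higher and 0 lower at an unadjusted p under 0.05, and the factor Wt1 (0.22) and Msln (0.27) had adjusted p-values of 0.341 and 0.454. Of 5 measured lymphatic markers 2 were higher and 3 lower, with a median of -0.02, 0 passing in limma, 1 higher and 0 lower at an unadjusted p under 0.05, and a log2 summed signal of 11.26 to 11.47 in wild type and 11.46 to 11.98 on the arrays labelled Falcor-null. Their receptor Flt4 gave 0.26 (limma adjusted p 0.358) and Reln gave -0.24 (limma adjusted p 0.418). The lymphatic sum mostly follows Lyve1, named here for its brightness, which read 10.86 to 11.06 in wild type. On Falcor-null replicates 1, 2 and 3 Lyve1 read 11.01, 11.13 and 11.75. Of 8 markers of aerocytes, the capillary cells that face type 1 cells, 5 were higher and 3 lower with a median of 0.13, and 0 passed in limma, with 2 higher and 1 lower at an unadjusted p under 0.05. Chst1, a sulfotransferase, gave 0.38 (limma adjusted p 0.105) and the peptide Apln gave 0.56 (limma adjusted p 0.187).

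In the remaining lists 0 genes passed in limma in either direction, and 0 had an unadjusted p under 0.05. Of 6 club cell markers 4 were higher, with a median of 0.03, of 5 ciliated cell markers 2 were higher, with a median of -0.0081, of 5 gland markers 3 were higher, with a median of 0.09, and of 4 neuroendocrine markers 2 were higher, with a median of 0.06. The gland markers were read as a check on Aqp5, which glands also make, and their log2 summed signal was 8.0 to 8.70 in wild type and 8.30 to 8.59 on the arrays labelled Falcor-null. Named here for their level, Lpo, Dcpp1, Sox10 and Bpifa2 had group means of 4.56 to 5.43, below the array medians. Only Ltf lay above those medians, at 7.63 in wild type and 7.80 on the arrays labelled Falcor-null. These markers therefore say little about gland tissue.

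**Figure D4:**
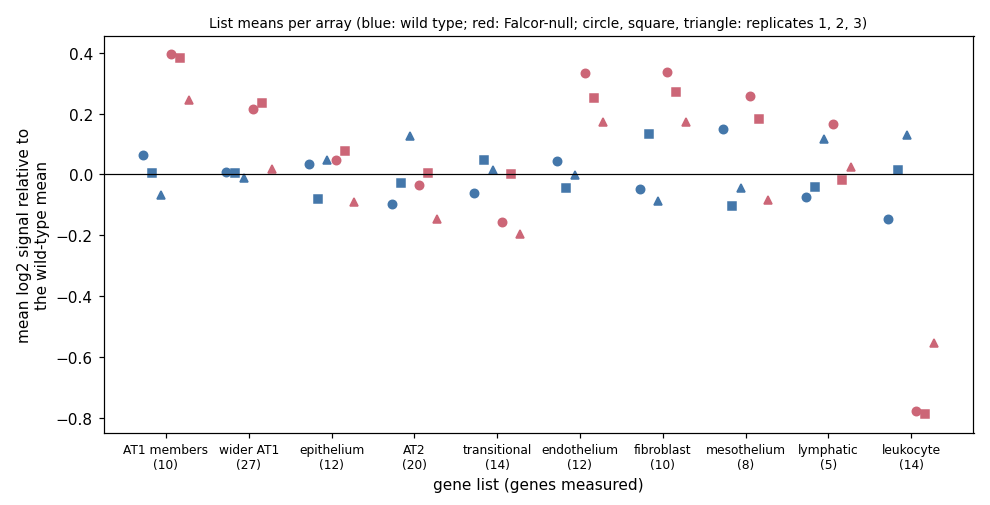
Mean log2 signal of 10 gene lists on each array relative to the wild-type mean of each gene (vertical axis), with the genes measured under each list name, wild type in blue and Falcor-null in red. All red points lie above the blue ones for the members (0.24 to 0.40) and the wider type 1 list (0.02 to 0.23). The same holds for endothelium (0.17 to 0.33) and fibroblasts (0.17 to 0.34). For leukocyte markers the red points lie below the blue ones, at -0.79 to -0.55. Red and blue points mix for alveolar type 2, transitional, general epithelial, mesothelial and lymphatic genes.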

How the data were processed

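Biotin-labelled RNA of whole lung was read on single-channel arrays. The authors deposited a log2 signal for each probe set and array. For its processing, the submitters' notes list limma, oligo and RMA, with no version. RMA normalizes the arrays to each other by quantiles, so a shift shared by most genes would be largely removed. The medians, SDs and lowest signals of the deposited values nonetheless split by group, as given above. Filters and genome build are not given in the sources used here. Signal over background is unknown.

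Of 24173 probe sets, 17476 had exactly 1 symbol in the platform annotation, 1308 had several and 5389 had none there; only the first were used. The probe set with the highest mean stood for a gene. Groups came from the sample titles and were compared with lmFit and eBayes (limma 3.58.1, R 4.3.3), two-sided, without covariates, with Benjamini-Hochberg adjustment over 16537 genes. The code was tested on simulated data. The members and the other gene lists, some of which share genes, were chosen with earlier results of these data known. Named were all members and, per list, up to 4 genes that passed or otherwise up to 2 with the smallest p, and any other gene is marked in the text. Same-numbered arrays did not deviate together (correlations over genes 0.02, -0.0025 and -0.08), so replicate numbers were not used as pairs. Promoter windows were read with Python 3.11.15, and figures drawn with matplotlib 3.10.9.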

Additional observations from a re-analysis of the deposited data

How the results depend on the processing

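All 10 members kept a higher mean in each alternative run, and none passed as lower. The alternatives were the replicate block, 3 other scalings of the arrays, an intensity trend or robust variance, array weights, 2 filters on dim probe sets, the mean or the most variable probe set of a gene, an adjusted p threshold of 0.1 and leaving out each array. The median difference of the members was 0.20 with the settings used, 0.26 after a second quantile normalization and 0.29 with the arrays scaled to one SD, and 0.19 to 0.22 with 1 array left out. Leaving out 1 array gave 0 to 1 members that passed as higher, since Spock2 lost its call without any array but wild-type replicate 1, at differences of 0.70 to 0.88 over these 6 fits. Over all genes, 3 to 13 then passed as higher and 15 to 76 as lower, against 16 and 76 with all arrays. With the replicate numbers as a block, which the correlations did not bear out as pairs, Spock2 (0.82, limma adjusted p 0.0846) no longer passed and Igfbp2 (1.13, limma adjusted p 0.0443) did, while 3 genes were called higher and 29 lower over all genes. An adjusted p threshold of 0.1 gave 73 higher and 207 lower genes, an intensity trend 32 and 99, and leaving out dim probe sets below the median 29 and 64, with Spock2 the only member in each. Taking the most variable probe set changed Rtkn2 from 0.29 to 1.07 (limma adjusted p 0.178). The wider list, whose left-out arrays were added after seeing the data, had 21 to 25 of 27 genes higher. Signal over background is unknown, and 3 arrays a group limit what can be told apart.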
